A study of Rattus norvegicus with 6 samples.

Results

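The rat cluster of miR-143 and miR-145 was followed in extracellular vesicles released by dedifferentiated fat (DFAT) cells, fibroblast-like multipotent cells that are obtained when mature adipocytes attach and lose their lipid in ceiling culture. The cells came from Sprague-Dawley rats. Small RNA was sequenced from vesicles of cells at 0 d (n = 3) and of cells conditioned for 14 d in osteogenic induction medium (n = 3), and the comparison asks how this conditioning is reflected in the vesicle miRNAs. No allele, transgene or other agent is named for either group, and the labels do not say whether the 3 samples of a group came from separate animals or cultures. The p-values therefore set the difference between the groups against the variation among these samples, and part of that variation may be technical.

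The members were all lines whose mature miRNA is named rno-miR-143 or rno-miR-145, whatever the arm. This gave 4 of the 417 different mature sequences in the table, namely rno-miR-143-3p, rno-miR-143-5p, rno-miR-145-5p and rno-miR-145-3p (the species prefix is left out from here on). miR-143-3p and miR-145-5p passed edgeR's filter on low counts and were tested among 119 sequences. miR-143-5p and miR-145-3p did not pass and are described by their counts.

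miR-143 and miR-145 are cut from neighbouring hairpins that are known to be made from a shared primary transcript. In mice and humans they are best known from smooth muscle, where they favour the contractile state. miR-145-5p acts there on Klf4 and Klf5, transcription factors of the growing state, and miR-143-3p on the transcription factor Elk1. Both are also common in fibroblasts, pericytes and other stromal cells. In cultured cells miR-143-3p has been linked to adipocyte differentiation, and miR-145-5p to restraint of osteoblast differentiation through Sp7 (osterix).

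The hairpins are shown because both arms of each were counted separately and the 2 arms of a hairpin come from 1 molecule. All 4 deposited mature sequences were found unchanged in RefSeq's miRNA entries for assembly GRCr8, and the capitals mark the 2 mature arms, the 5p arm first.
Mir143: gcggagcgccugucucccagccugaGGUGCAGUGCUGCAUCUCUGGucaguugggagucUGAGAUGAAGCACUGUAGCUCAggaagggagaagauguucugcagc
Mir145: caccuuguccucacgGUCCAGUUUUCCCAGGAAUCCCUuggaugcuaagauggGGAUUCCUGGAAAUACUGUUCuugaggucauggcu
In GRCr8 they lie on the minus strand, Mir143 at chr18:57371349-57371453 and Mir145 at chr18:57369983-57370070. The hairpins are 1278 bases apart, with Mir143 upstream in the direction of transcription, and both fall inside the span of Carmn, a long non-coding RNA gene. GRCr8 is not the build named for the deposited files, which is rn6.

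The mature sequences are shown with the seed, bases 2 to 8 from the 5′ end, in capitals, since the seed is the main determinant of the targets of a miRNA.
miR-143-3p: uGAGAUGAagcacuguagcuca
miR-143-5p: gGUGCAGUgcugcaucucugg
miR-145-5p: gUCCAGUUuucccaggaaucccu
miR-145-3p: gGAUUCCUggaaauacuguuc
The 4 seeds all differ, so the partners of the cluster share no seed with each other. Of the remaining sequences in the table, 1 carried the seed of miR-143-3p, and it was a predicted tag, gGAGAUGAaccgugugcuggc, with 9 counts in 0 d replicate 2 and none elsewhere. No other tag held the seed of miR-143-5p, miR-145-5p or miR-145-3p. No further tag shared a run of 12 bases with either hairpin, so the counts of the members were not divided over length variants listed under other names.

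The 6 libraries held 120766 to 164424 miRNA counts at 0 d and 58730 to 73236 at 14 d. The dominant sequence, the stromal miR-21-5p, took 29.4% to 42.4% of the counts at 0 d and 59.7% to 68.7% at 14 d. The factors of the trimmed mean of M-values (TMM), which scale the libraries, were 1.35, 1.35 and 1.39 at 0 d. At 14 d they were 0.92 in replicates 1 and 3 and 0.47 in replicate 2, so 14 d replicate 2 stood apart. Levels scaled to a common library size with these factors are called TMM-scaled CPM, and shares are percentages of all counts in a library.

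miR-143-3p, the leading arm of its hairpin, was counted in every library and rose between 0 d and 14 d in the TMM-scaled fit. It had 362, 262 and 100 counts in 0 d replicates 1, 2 and 3 and 351, 165 and 262 counts in 14 d replicates 1, 2 and 3. The raw counts of the groups overlapped, in libraries that were less deep at 14 d. In TMM-scaled CPM the values were 1784, 1193 and 602 at 0 d and 6267, 4818 and 4871 at 14 d, so each 14 d library lay above each 0 d library. The means were 1193 ± 591 and 5319 ± 822 (SD, n = 3 each). The fitted log2 fold change was 2.15 ± 0.48 (SE; edgeR quasi-likelihood test, Benjamini-Hochberg adjusted p = 0.00759 over all tested sequences). The median log2 fold change of all 119 tested sequences was 0.26.

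miR-145-5p, the leading arm of the other hairpin, was less abundant than miR-143-3p in all 6 libraries and was counted in 1 of 3 libraries at 0 d but in 3 of 3 at 14 d. It had 38 counts in 0 d replicate 2 and was not listed in 0 d replicates 1 and 3, against 90, 35 and 51 counts in 14 d replicates 1, 2 and 3. In TMM-scaled CPM this was 173 in 0 d replicate 2, and 1607, 1022 and 948 at 14 d, where the mean was 1192 ± 361 (SD, n = 3). The groups did not overlap on this scale. The fitted log2 fold change was 4.32 ± 1.53 (SE; edgeR adjusted p = 0.0433). This value rested on 0 d replicate 2. Without it the fitted value was 9.996 (edgeR adjusted p = 0.00191), which depends on the prior count because miR-145-5p was then not listed at 0 d. Taken against a floor of 3 counts in each of those 0 d libraries, the 14 d mean was at least 72.6-fold higher. Without any 1 of the other 5 libraries the fitted value was 3.54 to 4.48 with edgeR adjusted p from 0.0563 to 0.0931, no longer past the threshold of 0.05.

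Both tested members were therefore called higher at 14 d. miR-145-5p, not listed in 0 d replicates 1 and 3, could pass the filter on low counts only through its 14 d libraries. The same call was made for 26.1% of all tested sequences (31 of 119), while 28.6% were called lower, and 41.2% had 14 d libraries that all lay above the 0 d libraries in TMM-scaled CPM. In bulk vesicle RNA, more vesicles that carry a miRNA and more copies in each vesicle cannot be told apart.

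**Figure D1:**
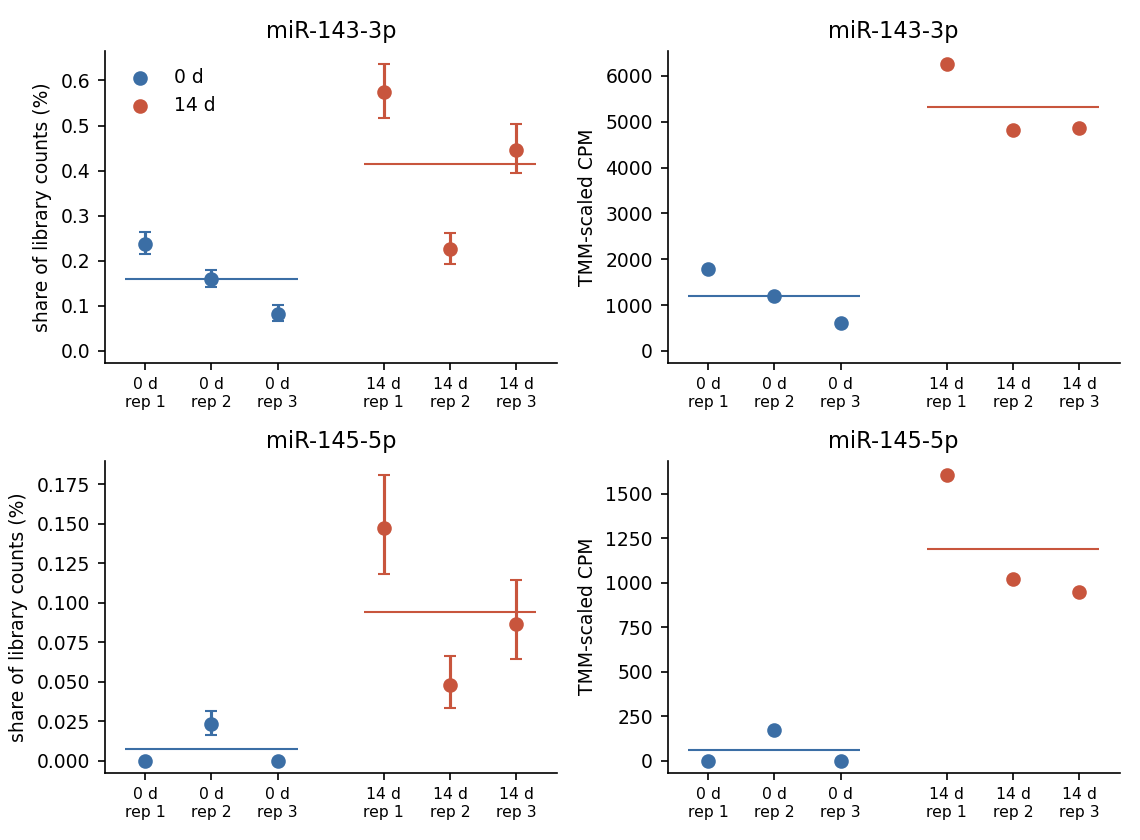
Level of miR-143-3p (top) and miR-145-5p (bottom) in each vesicle library, as a share of library counts with exact 95% counting intervals (left) and as TMM-scaled CPM (right); each point is 1 library, horizontal lines are group means, and a point at 0 is a library in which the miRNA was not listed. The groups overlap for the share of miR-143-3p, where 0 d replicate 1 (0.238%) lies above 14 d replicate 2 (0.225%), and are separate in the other panels.

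As a share of all counts the difference was smaller, since the TMM factors of the groups differed. miR-143-3p held 0.238% (exact 95% interval 0.214 to 0.263), 0.159% (0.141 to 0.180) and 0.0828% (0.0674 to 0.101) of the counts in 0 d replicates 1, 2 and 3. At 14 d it held 0.574% (0.516 to 0.637), 0.225% (0.192 to 0.262) and 0.446% (0.394 to 0.503). The intervals are Clopper-Pearson and cover counting error only. The highest 0 d library lay above the lowest 14 d library, and the means of 0.160% ± 0.0775 and 0.415% ± 0.177 (SD, n = 3 each) gave an exact 2-sided permutation p of 0.2, where 0.1 is the smallest that 3 against 3 allows. With either of 2 other denominators the groups did not overlap (exact permutation p = 0.1 each). As a share of the counts other than miR-21-5p, miR-143-3p held 0.117% to 0.385% at 0 d and 0.559% to 1.84% at 14 d, and 37.3% of the tested sequences were likewise separate and higher at 14 d. As a share of annotated miRNAs it held 0.0873% to 0.2528% and 0.2542% to 0.619%, a separation that 24% of the tested annotated sequences showed. The gap from 0.2528% to 0.2542% is narrower than any of the counting intervals given above for shares of all counts. This denominator leaves out all predicted tags, among them miR-199a-3p without its last base. With total counts in place of TMM factors, which lowered the log2 fold changes of all tested sequences by a median of 0.87, the value of miR-143-3p was 1.37 (edgeR adjusted p = 0.0584). That setting called 15.1% of all sequences higher, and 18 of its 64 calls were higher, against 31 of 65 with TMM.

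The share of miR-145-5p was 0.0231% (exact 95% interval 0.0164 to 0.0317) in 0 d replicate 2. It was 0.147% (0.118 to 0.181), 0.0478% (0.0333 to 0.0665) and 0.0868% (0.0647 to 0.114) in 14 d replicates 1, 2 and 3. The groups did not overlap (exact 2-sided permutation p = 0.1, the smallest possible), as was true in the higher direction of 26.1% of the tested sequences on this scale. With total counts alone the log2 fold change of miR-145-5p was 3.55 (edgeR adjusted p = 0.0532). Within the 14 d group, replicate 1 had the highest share of both members and replicate 2 the lowest.

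The members were also counted against miR-21-5p, the most abundant miRNA. Per 1000 counts of miR-21-5p, miR-143-3p had 6.20, 3.76 and 2.82 counts at 0 d and 8.36, 3.77 and 7.15 at 14 d. The groups overlapped, with 14 d replicate 2 at the level of 0 d replicate 2 (exact 2-sided permutation p = 0.2). miR-145-5p had 0.545 per 1000 in 0 d replicate 2 and 2.14, 0.801 and 1.39 at 14 d, with no overlap (exact permutation p = 0.1), as was true in this direction of 15.3% of the tested sequences other than miR-21-5p. On the authors' own normalized values the groups likewise overlapped for miR-143-3p and did not for miR-145-5p, where 25.2% of the tested sequences were separate and higher at 14 d. The deposited values were 503, 346 and 129 at 0 d and 1543, 370 and 949 at 14 d for miR-143-3p, and for miR-145-5p 50 in 0 d replicate 2 against 396, 79 and 185 at 14 d. Tested with limma on log2 of these values plus 1, miR-143-3p was at 1.53 (adjusted p = 0.141) and miR-145-5p at 5.61 (adjusted p = 0.0307) on the log2(value + 1) scale.

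**Figure D2:**
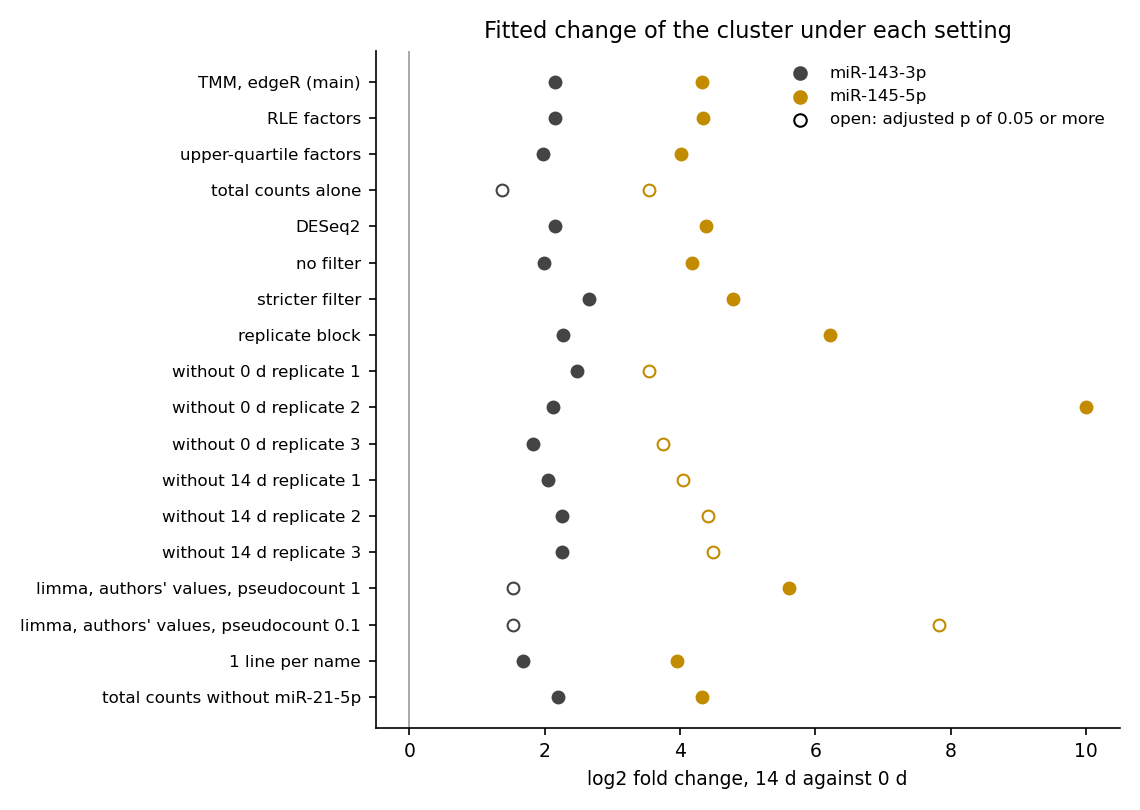
Fitted log2 fold change, 14 d against 0 d, of miR-143-3p (dark) and miR-145-5p (ochre) under each processing setting; filled points have an adjusted p below 0.05 and open points do not. All points lie above 0, and the call of miR-143-3p ends with total counts and with the authors' values. The call of miR-145-5p ends with total counts and with the authors' values at a pseudocount of 0.1. It also ends on leaving out any library except 0 d replicate 2, without which the value of miR-145-5p is 9.996.

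The ratio of the cluster partners does not depend on how the libraries are scaled. In 0 d replicate 2 there were 6.89 counts of miR-143-3p for each of miR-145-5p, and in 14 d replicates 1, 2 and 3 there were 3.90, 4.71 and 5.14. Expressed as the share of miR-145-5p in the summed counts of the partners, this was 12.7% (exact 95% interval 9.12 to 17.0) of 300 counts in 0 d replicate 2. At 14 d it was 20.4% (16.7 to 24.5) of 441, 17.5% (12.5 to 23.5) of 200 and 16.3% (12.4 to 20.9) of 313. The intervals of the 14 d libraries overlapped each other, and all 3 overlapped that of 0 d replicate 2.

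In the other 0 d libraries the partner was not listed beside 362 counts of miR-143-3p in replicate 1 and 100 in replicate 3. The smallest count listed in any library was 2, so a blank may stand for 1 count as well as for 0. Even with 1 count, the exact upper 95% limit for the share of miR-145-5p would be 1.53% in replicate 1 and 5.39% in replicate 3, both below the interval of replicate 2. These limits cover counting error only, and replicates of a group also differed by more than counting error over all sequences. The 0 d mean was 4.22% ± 7.31 (SD, n = 3), and the 14 d mean was 18.1% ± 2.11 (SD, n = 3). The groups did not overlap (exact 2-sided permutation p = 0.1, the smallest possible). Without 0 d replicate 2 the difference was 18.1 percentage points, and without 0 d replicate 1 or 3 it was 11.7. The fitted log2 fold change of miR-143-3p minus that of miR-145-5p was -2.16, and it was -1.07 without 0 d replicate 1 and -7.88 without 0 d replicate 2.

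Other neighbouring pairs moved in either direction, and these values are given without a test. Of the summed counts of miR-221-3p and miR-222-3p, partners that share a seed, miR-222-3p held 6.98% to 15.9% at 0 d and 0.483% to 2.14% at 14 d. Of miR-199a-3p and miR-214-3p, partners from another stromal cluster, miR-214-3p held 0.787% to 2.06% at 0 d and 4.83% to 12.2% at 14 d. For miR-199a-3p this includes a predicted tag, acaguagucugcacauugguu, which is the mature sequence without its last base and held 17347 of its counts against 1743 under the annotated name.

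**Figure D3:**
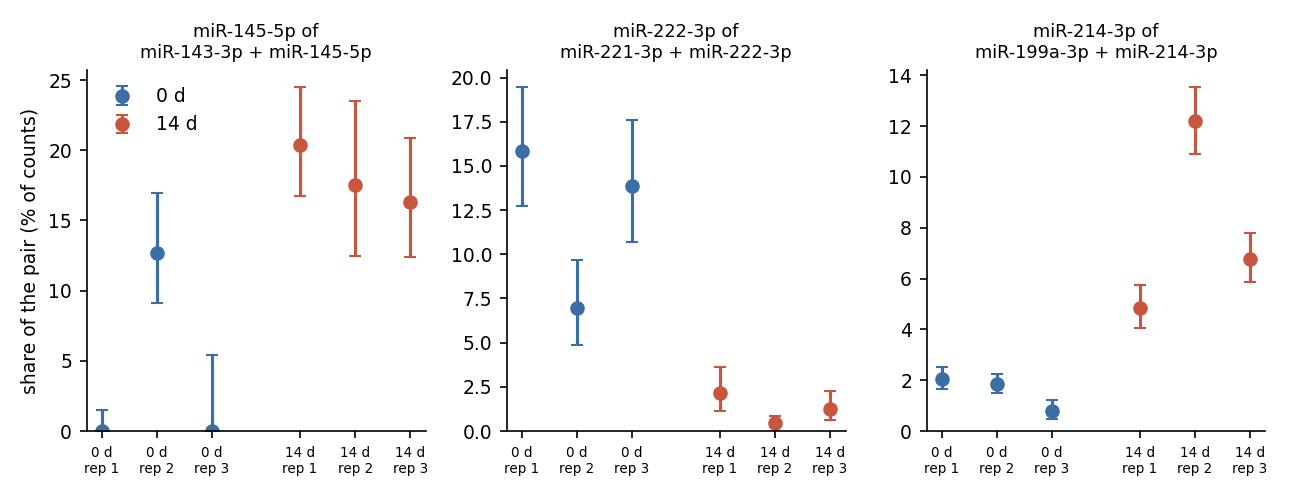
Share of the second partner in the summed counts of a pair, in each library, with exact 95% counting intervals; for libraries in which miR-145-5p was not listed the bar runs to the upper limit for 1 count. The share of miR-145-5p lies between 16.3% and 20.4% in all 14 d libraries and is 12.7% or not listed at 0 d, while miR-222-3p is lower and miR-214-3p higher at 14 d.

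The passenger arms of both hairpins were listed at 14 d and not at 0 d. miR-143-5p had 6 counts in 14 d replicate 2 and 2 in 14 d replicate 3, and was blank in 14 d replicate 1 and at 0 d. miR-145-3p had 12 counts in 14 d replicate 2 and 2 in 14 d replicate 1, and was blank in 14 d replicate 3 and at 0 d. Most of these counts came from 14 d replicate 2, the library whose TMM factor stood apart. The part of that library in the result was not tested.

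Pooled over the 14 d libraries, miR-143-5p held 1.02% (exact 95% interval 0.440 to 1.996) of the 786 counts of its hairpin. For miR-145-3p it was 7.37% (4.09 to 12.1) of 190. These intervals treat the pool as a single sample and leave out the spread between libraries. By library, miR-145-3p held 2.17% of 92 counts in 14 d replicate 1, 25.5% of 47 in replicate 2 and none of 51 in replicate 3. miR-143-5p held none of 351, 3.51% of 171 and 0.758% of 264. At 0 d, the leading arms had 724 counts (miR-143-3p) and 38 counts (miR-145-5p), with no passenger arm listed. For scale, 49 less abundant arms were listed for annotated precursors with both arms in the table, and 11 of them had counts only at 14 d, 15 only at 0 d and 23 in both groups. Such counts are small, and neither passenger arm was called in the edgeR fit without a filter (adjusted p = 0.325 for miR-143-5p and 0.124 for miR-145-3p).

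**Figure D4:**
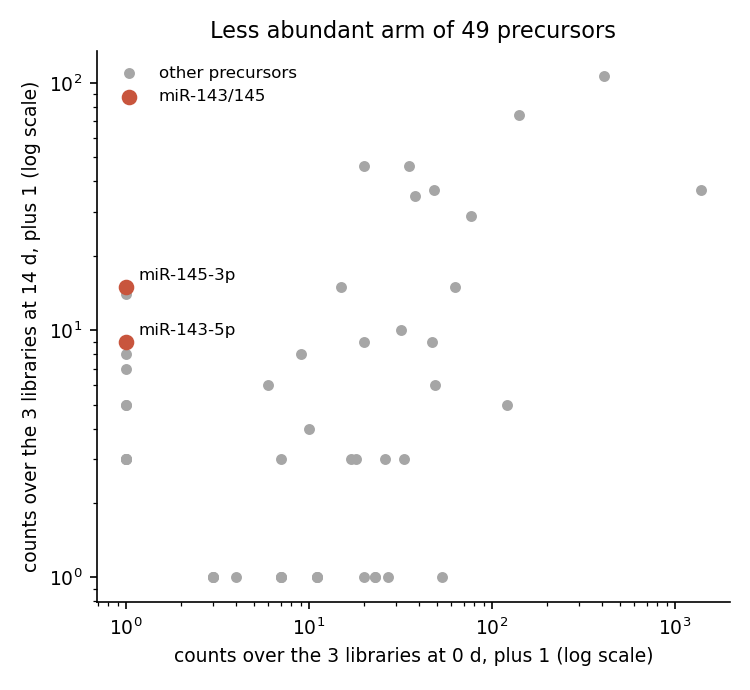
Counts of the less abundant arm of each of 49 annotated precursors, summed over the 3 libraries at 0 d (x axis) and at 14 d (y axis), each plus 1, on log scales. miR-143-5p (8 counts) and miR-145-3p (14 counts) lie on the left edge, where nothing was listed at 0 d, together with 9 further arms.

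By abundance the cluster moved up the order of listed sequences. At 0 d miR-143-3p ranked 37, 40 and 56 in replicates 1, 2 and 3, and at 14 d it ranked 15, 29 and 18. Over the summed counts of a group it stood at place 43 of 332 listed sequences at 0 d, between miR-126a-3p (727 counts), an endothelial miRNA, and miR-151-3p (642 counts), next to its own 724. At 14 d it stood at place 19 of 237, between miR-22-3p (826 counts) and miR-20a-5p (746 counts), next to its own 778. miR-145-5p ranked 87 in 0 d replicate 2 and 33, 48 and 41 in 14 d replicates 1, 2 and 3. Its group place went from 128 to 40, where miR-186-5p (204 counts) and miR-129-5p (172 counts) were its neighbours at 14 d beside its own 176.

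The likeness of profiles was measured as the root mean square difference between log2 CPM values, each centred on its own mean over the 6 libraries, and is a description. Libraries of a group share the group, and all profiles share the depth and the TMM factors. Closest to miR-143-3p was miR-501-3p (0.484), followed by the shorter tag of miR-199a-3p named above (0.539), miR-21-5p (0.558), miR-218a-5p (0.576) and miR-26b-5p (0.590). Of these 5, miR-21-5p and the shorter tag were called higher at 14 d, a call made for 26.1% of all tested sequences. miR-501-3p (log2 fold change 2.08), miR-218a-5p (1.54) and miR-26b-5p (1.46) were not past the threshold. The 5 were picked for likeness in these same libraries, so their calls add no evidence about miR-143-3p. The median difference over all tested sequences was 1.54, and its own partner miR-145-5p was at 1.82, place 71. That distance depends on the prior count of 2, which sets the log2 CPM of miR-145-5p in 0 d replicates 1 and 3, where it was not listed.

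Closest to miR-145-5p were let-7a-1-3p (1.09), a passenger arm of the let-7 family, and the muscle miRNA miR-1-3p (1.19). A predicted tag, agggcuggagagauggc (1.20), miR-17-5p (1.36) and miR-378a-3p (1.38) followed, against a median difference of 2.71 over all tested sequences. miR-143-3p came at place 22, again with miR-145-5p at the prior count in 0 d replicates 1 and 3. Of these nearest profiles, let-7a-1-3p, like miR-145-5p, was listed at 0 d in replicate 2 alone, with 19 counts. miR-17-5p had its highest 0 d count there, 45 against 5 in replicate 1 and none listed in replicate 3.

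**Figure D5:**
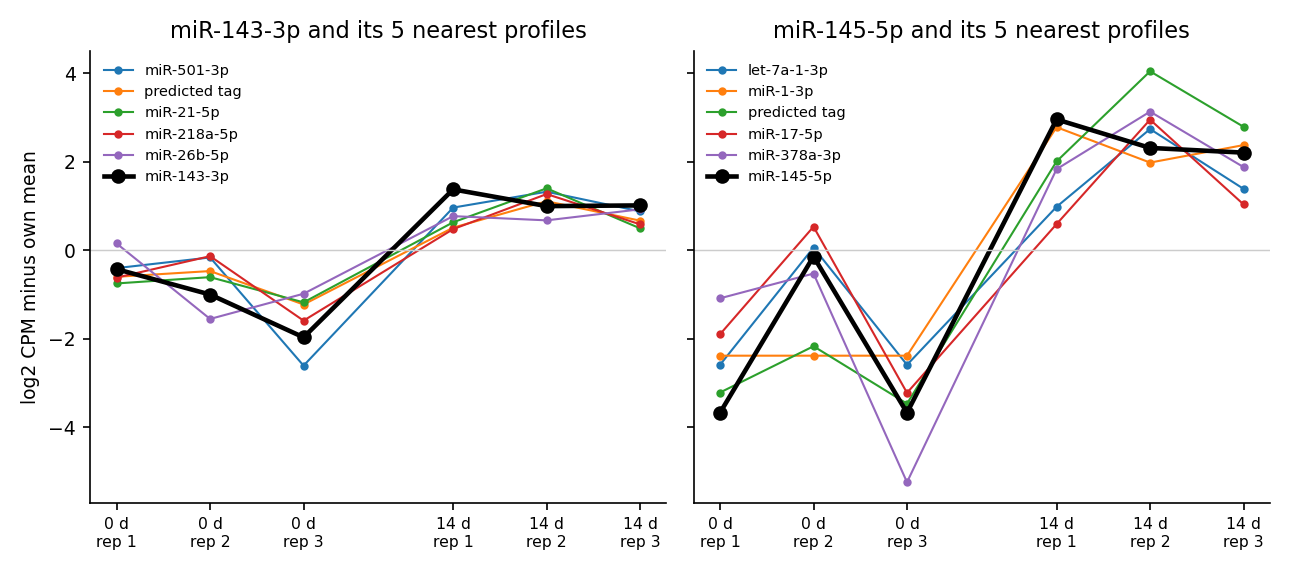
Centred log2 CPM of miR-143-3p (left) and miR-145-5p (right) in black, with the 5 tested sequences whose profiles were closest in colour; lines only join the values of 1 sequence, and replicates have no order. At 0 d, miR-145-5p and let-7a-1-3p were listed in replicate 2 alone, where both lie below their 14 d values.

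Among miRNAs linked to the contractile state of smooth muscle, 4 of 8 were listed and 3 tested, and 1 of these rose while none fell, where 26.1% of all tested sequences rose and 28.6% fell. It was miR-1-3p, which had 32, 11 and 23 counts in the 14 d libraries and was not listed at 0 d (edgeR adjusted p = 0.00289), at least 28.4-fold higher against a floor of 3 counts in each 0 d library. miR-22-3p, which favours smooth muscle differentiation, was at a log2 fold change of 0.58 and miR-10a-5p at 1.41, neither past the threshold. Since miR-1-3p passed the filter through the 14 d libraries alone, no fall could have been called for it. miR-204-5p, listed but not tested, had 10 counts in 0 d replicate 3 and none elsewhere. miR-133a-3p, the usual companion of miR-1-3p in muscle, was not listed in any library. The median log2 fold change of the 3 was 1.41, also with miR-1-3p at its bound, beside 0.26 over all tested sequences.

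Of 9 miRNAs linked to the growing state of smooth muscle, 7 were tested, and 3 rose and 1 fell, with a median of -0.19. Over all tested sequences, 26.1% rose and 28.6% fell, with a median of 0.26. The untested members were listed at 0 d only, miR-92a-3p with 7, 10 and 12 counts and miR-31a-5p with 5 in replicate 2. The risen ones of the growing list were miR-221-3p at 3.99, miR-24-3p at 3.43 and miR-21-5p at 1.73, whereas miR-146b-5p fell by 1.78. With total counts, which called 15.1% of all sequences higher and 38.7% lower, 2 rose and 3 fell. The call of miR-21-5p then ended (0.79, edgeR adjusted p = 0.0532). Without 0 d replicate 1, 2 members fell, where 29 of all 58 calls were higher. The same number fell with upper-quartile factors, DESeq2, limma at a pseudocount of 1 and lines merged by name. Of 14 stromal miRNAs 13 were tested, and 6 rose and 2 fell, with a median of 1.11, beside the same shares and median over all sequences. miR-21-5p and miR-24-3p belong to both lists and count among the risen members of each. The stromal miRNAs with the largest rise were miR-27b-3p (4.78) and miR-214-3p (3.84), while miR-125b-5p fell by 2.95 and miR-99a-5p fell by 1.75. With total counts 4 rose and 3 fell, beside the 15.1% and 38.7% given above. Without 14 d replicate 2, 3 fell, where 23 of all 57 calls were higher. Without 14 d replicate 3, 1 fell, where 26 of all 50 calls were higher. Upper-quartile factors, DESeq2, limma on the authors' values, lines merged by name and total counts without miR-21-5p also gave 3 fallen members.

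Markers of other sources were checked, since serum or other cells can add miRNAs to vesicle RNA. The summed share of 2 liver miRNAs, led by miR-122-5p, was 2.85% to 10.9% at 0 d and 0.434% to 0.610% at 14 d. For 5 red cell and serum miRNAs it was 0.197% to 0.503% and 0.0393% to 0.115%, with miR-451-5p, their defining member, at 7 counts in 0 d replicate 2 and not listed elsewhere. Most of that sum at 0 d was miR-486, while another member, miR-16-5p, was called higher at 14 d (log2 fold change 2.50, edgeR adjusted p = 0.0259). The 2 endothelial arms of miR-126a held 0.138% to 0.220% and 0.0205% to 0.0409%. Of 3 skeletal muscle miRNAs 2 were listed, at 0.243% to 0.298% and 0.0150% to 0.0622%, with miR-206-3p lower at 14 d, miR-1-3p higher as given above and miR-133a-3p at 0.

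Of 5 leukocyte miRNAs 3 were listed, with up to 0.0197% at 0 d and none at 14 d, and the defining miR-142-3p and miR-223-3p were at 0. Of 7 epithelial miRNAs 5 were listed, with at most 0.0225% at 0 d and 0.0115% at 14 d. Of 3 neural miRNAs 2 were listed, at 0.290% to 0.346% and 0.0410% to 0.113%, with miR-124-3p at 0. The liver, red cell, endothelial, muscle and neural sums were thus higher at 0 d, although miR-16-5p and miR-1-3p within them were called higher at 14 d as both tested members of the cluster were. Their part in the result was not tested. The sparse markers differed in where they were listed at 0 d. miR-142-5p (4 counts) was listed in replicate 1 alone and miR-375-3p (4) in replicate 3 alone. miR-155-5p (26 and 20) and miR-9a-5p (5 and 3) were listed in replicates 1 and 2, and miR-126a-5p (14 and 3) in replicates 2 and 3. Several other sparse markers were listed at 0 d in replicate 2 alone, as miR-145-5p was. They were miR-451-5p (7 counts), miR-150-5p (11), miR-200b-3p (12), miR-200c-3p (5), miR-203a-3p (12) and miR-205 (8), and were picked out after their values had been seen. Replicate 2 was the deepest of the 6 libraries, with 164424 counts beside 152275 in 0 d replicate 1. Any link of depth or of these markers to miR-145-5p, which had 38 counts there, was not tested.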

How the data were processed

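Small RNA libraries were made from Trizol-extracted RNA, per the labels' protocols. Novoalign 3.02.12, cutadapt 1.9.3 and rn6 appear in the submitters' processing notes without their roles. The tool used for counting was not given. Per the file headers, the deposited tables hold raw tag counts and a normalized tag count, used here as a score, which is the raw count multiplied by a factor of each library (95.5% to 100% of values fitted within 1 count plus 0.5%). Blanks were taken as 0, and the 483 lines were merged to 417 mature sequences.

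Counts were tested with edgeR 4.0.16 (R 4.3.3; TMM factors, group as the only term, quasi-likelihood F test, 2-sided, filter at a minimum count of 10 and total of 15), with adjusted p below 0.05 as a call. The SE is the log2 fold change divided by the square root of F. The test was also tried on simulated data, drawn with a common dispersion for all sequences, which is simpler than these data. Profiles used log2 CPM with a prior count of 2. Alternatives used DESeq2 1.42.0 and limma 3.58.1. Shares and partner ratios were compared with exact permutation tests (scipy 1.17.1).

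Named sequences were the members, their 5 nearest profiles, their neighbours in abundance, sequences sharing a seed, 3 lists (contractile, growing and stromal) with their abundant members, pairs of partners and source markers. The pair miR-23b-3p and miR-27b-3p was not formed because miR-23b-3p was not listed. The members and lists were chosen with earlier results of these data known. Counts relative to miR-21-5p, the set of passenger arms and the added tag of miR-199a-3p were chosen after seeing the data.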

Additional observations from a re-analysis of the deposited data

How the results depend on the processing

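Both tested members were higher at 14 d in every setting tried. For miR-143-3p the threshold was missed with total counts (1.37) and with limma on the authors' values (1.53 with a pseudocount of 1 or 0.1), and its value was 1.83 to 2.48 leaving out each library. For miR-145-5p it was missed with total counts (3.55) and with limma at a pseudocount of 0.1 (7.82). The threshold was also missed on leaving out any library except 0 d replicate 2 (edgeR adjusted p from 0.0563 to 0.0931). The value of miR-145-5p was 3.54 to 9.996 leaving out each library. The difference between the log2 fold changes of the partners was -7.88 to -1.07 leaving out each library. The labels do not say whether replicate numbers pair the libraries. Correlations of same-numbered deviations were -0.02, 0.04 and 0.17, and 3 of 6 libraries were closest to their own number. So few libraries cannot decide the pairing. With the replicate block, miR-143-3p was at 2.27, miR-145-5p at 6.21, their difference at -3.94, and 62 sequences were called in place of 65. Leaving out each library gave 50 to 69 calls. The share differences were 0.176 to 0.350 percentage points for miR-143-3p, 0.0596 to 0.109 for miR-145-5p and 11.7 to 18.1 for the partner share. Over the settings run, 1 to 2 contractile miRNAs rose and none fell. Of the growing list 2 to 3 rose and 1 to 3 fell, and 4 to 7 stromal miRNAs rose and 1 to 3 fell. Over all sequences these settings made 50 to 82 calls, of which 28.1% (total counts) to 56.7% (stricter filter) were higher at 14 d. With the stricter filter (minimum count of 20 and total of 30) the risen contractile miRNA was miR-22-3p, and miR-1-3p was not tested. The cause of these changes was not tested. With 35 to 90 counts of miR-145-5p per 14 d library and up to 38 at 0 d, its fold change rests on small counts.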
